A study of Homo sapiens with 36 samples.

Results

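The RNA crosslinked to SCAF4 was compared with the RNA of the extract that it was pulled from. SCAF4 immunoprecipitates (IPs) and inputs gave 6 of the 18 cluster lists of the series, 3 IP lists and 3 input lists, and each IP list was set beside the input list with the same replicate number. The cells were HEK293 Flp-In T-Rex cells, a human embryonic kidney line, which carried doxycycline-inducible FLAG-tagged SCAF4 and kept their own SCAF4 gene, so tagged and untagged protein were present together. By the labels, doxycycline was given at 100 ng/mL overnight to the tagged line, whereas the study's methods give a higher dose, and all cells received 4-thiouridine (4SU) at 100 µM overnight, a further 500 µM for 2 h and 365 nm light at 2000 J/m2. The background came from 3 IP and 3 input lists of the parental line, HEK293 Flp-In T-Rex cells without a tagged protein, which were treated likewise. The labels name no doxycycline for the parental line and the methods say that it received it, so whether the lines also differ in the drug is unsettled. Soluble and chromatin extracts had been joined before clusters were called, and each list is therefore 1 replicate. The methods call the replicates biological, the labels do not say whether they were separate cultures, and p-values over lists measure the spread between these lists.

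SCAF4 is a nuclear protein with a domain that binds the C-terminal repeats of RNA polymerase II and with an RNA-recognition motif. It belongs, with its paralogue SCAF8, to the proteins that keep the polymerase from ending transcripts early within genes. In PAR-CLIP, cells build the photoreactive uridine analogue 4SU into new RNA, ultraviolet light joins it to proteins in contact with it, and reverse transcription reads the joined base as C in place of T. A cluster is a stretch of genome where overlapping reads carry such T-to-C changes. Input clusters come from the same crosslinked extract before the IP, so they reflect abundant RNA and RNA joined to any protein.

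The first 6 genes with a larger share of clusters in the IP, described further on, are represented here by a region that had clusters in all 3 SCAF4 IP lists and in none of the SCAF4 input or parental IP lists. The bases are those of the reference genome GRCh38 on the strand of the gene, and capitals mark CGG or CGA, CAG with a C or G on each side (4 forms), and CTCC or CACC, searched on that strand only, with overlapping matches joined. These short motifs were named by the study from these samples, so their presence is a description.
DYNC1H1, chr14:102001535-102001682, plus strand, exon 21 of 78: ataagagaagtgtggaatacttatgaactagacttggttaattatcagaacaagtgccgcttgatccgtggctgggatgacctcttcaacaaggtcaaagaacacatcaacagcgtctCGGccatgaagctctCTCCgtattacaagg
PCNT, chr21:46346818-46346907, plus strand, exon 5 of 48: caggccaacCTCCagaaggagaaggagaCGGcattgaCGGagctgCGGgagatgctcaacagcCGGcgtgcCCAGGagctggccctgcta
ESPL1, chr12:53270419-53270545, plus strand, exon 4 of 31 and the intron behind it: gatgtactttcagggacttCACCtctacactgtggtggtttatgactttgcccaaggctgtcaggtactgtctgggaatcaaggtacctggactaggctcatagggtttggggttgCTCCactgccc
PKD1, chr16:2111358-2111562, minus strand, exon 15 of 46: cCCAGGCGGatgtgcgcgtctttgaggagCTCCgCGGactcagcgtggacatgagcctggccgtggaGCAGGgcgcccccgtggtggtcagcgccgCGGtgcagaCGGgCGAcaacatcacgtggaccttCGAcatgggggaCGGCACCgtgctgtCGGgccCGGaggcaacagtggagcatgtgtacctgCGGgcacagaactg
TPR, chr1:186327525-186327640, minus strand, exon 40 of 51: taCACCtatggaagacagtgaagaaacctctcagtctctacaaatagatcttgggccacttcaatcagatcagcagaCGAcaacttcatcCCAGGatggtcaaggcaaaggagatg
NBPF19, chr1:149532384-149532444, plus strand, exon 66 of 94: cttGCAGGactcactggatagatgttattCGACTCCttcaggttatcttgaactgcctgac
Regions in UTRs had been left out when these were picked, so their place in coding exons was in part set by the choice. All 6 lay in coding exons, and those of DYNC1H1 and ESPL1 ran across the 5′ splice site, with 147 exonic and 1 intronic bases in DYNC1H1 and 64 exonic and 63 intronic bases in ESPL1. The G and C content went from 44.6% in DYNC1H1 to 68.3% in PKD1. The PKD1 region held 10 matches to CGG or CGA, that of PCNT held 4 and that of ESPL1 held 0. None of the first 4 genes with a smaller share in the IP had a region with clusters in all 3 inputs and in no IP list, so no sequence is shown for them.

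The 3 SCAF4 IP lists held 18991, 54404 and 33962 clusters, and the 3 input lists held 11715, 5114 and 4793. Every IP list was longer than every input list. The mean difference was 2.31 ± 1.43 on the log2 scale (SD of 3 pairs), from 0.70 in replicate 1 to 3.41 in replicate 2, with p = 0.1 in the two-sided exact permutation test over the 6 lists, which is the smallest p that 3 lists against 3 can give. In the parental line the IP lists were the shorter ones, with 9638, 2314 and 1621 clusters against 12493, 4567 and 5080 in the inputs, a mean difference of -1.001 on the log2 scale. Replicate 1 stood apart in both groups: its input list was the longest and its IP list the shortest, and its reads were longer than those of the other replicates. The lists hold no read numbers, so the depth behind them is unknown, and a longer list cannot be told apart from a more deeply sequenced one. The values below are therefore shares of a list and not numbers, and each pair is given separately because replicate 1 differed least in length.

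The clusters of the input were largely found again in the IP. In replicates 1, 2 and 3, 58.8%, 92.4% and 85.4% of the input clusters overlapped a cluster of their own IP by at least 1 nt, a mean of 78.9% ± 17.7 (SD, n = 3). Conversely, 36.4%, 8.44% and 11.9% of the IP clusters overlapped their own input, a mean of 18.9% ± 15.2 (SD, n = 3). An IP list met the inputs of other numbers about as often, covering 72.0% of the clusters of input 2 and 72.4% of those of input 3 in the case of IP 1, and 93.2% of those of input 3 in the case of IP 2. In the parental line, where the IP lists were short, 38.5%, 28.7% and 19.9% of the input clusters lay under their own IP.

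After the 6 lists were merged, 63039 regions remained. Of these, 12334 had clusters in all 3 IP lists, 2008 had clusters in all 3 inputs and 1756 had clusters in all 6 lists. There were 6072 regions with clusters in 3 IP lists and in no input, spread over 3313 genes, with a median length of 203 nt, and 23.8% of them overlapped a parental IP cluster. The 1756 regions present in all 6 lists had a median length of 320 nt, lay in 1007 genes and overlapped a parental IP cluster in 91.0% of cases. Regions in the IP alone were in coding exons in 61.4% of cases and in 3′ UTRs in 5.48%, against 33.9% and 20.7% of the regions in all 6 lists, and their median position was 27.0% of the way along the mRNA against 45.0%. The reverse kind was rare: 7 regions had clusters in all 3 inputs and in no IP list. Of these, 1 was in the 3′ UTR of BUB3, a spindle checkpoint gene, 1 in the 3′ UTR of RPL26L1, which encodes a ribosomal protein paralogue, 1 in an intron of FAM120B, 1 in the pseudogene ENSG00000213315 and 3 outside genes.

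The IP clusters lay more often in coding exons and less often in 3′ UTRs than the input clusters. Of the clusters in SCAF4 IP 1, 2 and 3, 49.0%, 42.8% and 47.0% had their midpoint in a coding exon, compared with 31.1%, 30.4% and 31.1% in the inputs. The 3 IP lists lay above the 3 inputs, with means of 46.3% ± 3.14 and 30.9% ± 0.431 (SD, n = 3 lists each). In 3′ UTRs the order was the opposite, with 12.8%, 10.3% and 8.79% of the IP clusters and 22.9%, 19.7% and 17.6% of the input clusters. The IP share of 3′ UTR clusters was lower in 3 of 3 pairs, with paired differences of -10.1 to -8.84 percentage points, and the means were 10.6% ± 2.02 and 20.1% ± 2.67 (SD, n = 3). Clusters in 5′ UTRs made up 3.26% ± 0.333 of the IP and 2.25% ± 0.108 of the input lists (SD, n = 3). For each of these 3 classes the exact permutation test gave p = 0.1, the smallest possible, and 0.15 after Benjamini-Hochberg adjustment over 9 classes.

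Introns, where nascent transcripts would give clusters, held similar shares in both groups. The values were 22.6%, 30.7% and 28.0% in the IP lists and 28.3%, 28.0% and 28.8% in the inputs, so the groups overlapped (p = 0.7, exact permutation test). The paired differences went from -5.79 to 2.67 percentage points. Clusters in exons of other gene types were fewer in the IP, at 4.50% ± 0.812 against 6.99% ± 0.984, as were those within 2000 nt downstream of a gene, at 1.80% ± 0.236 against 2.55% ± 0.271, and those outside genes, at 3.80% ± 0.506 against 6.17% ± 0.972 (SD, n = 3, p = 0.1 each in the exact permutation test). The differences in exons of other gene types and downstream of genes turned to 0.34 and 0.15 percentage points in favour of the IP when only genes with clusters in both lists of a pair were taken, each gene with the same weight.

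The parental line separated these classes. Its IP had more coding exon clusters than its input too, with a mean difference of 17.9 percentage points (16.3 to 20.6 over the 3 pairs) against 15.4 (12.4 to 17.8) for SCAF4, and the difference between the lines was within the spread of the pairs (p = 0.4, exact permutation of the 6 paired differences). For 5′ UTRs the parental pairs gave 0.525 to 1.42 percentage points and the SCAF4 pairs 0.749 to 1.27, which overlap (p = 0.8, exact permutation). The deficit of 3′ UTR clusters was larger for SCAF4, at -9.48 against -1.72 percentage points, of which the 3 parental pairs gave -5.82 to 1.27 (p = 0.1, exact permutation, the smallest possible). In introns the parental IP lay 17.9 percentage points below its input on average, whereas the SCAF4 IP lay 1.31 below, and every SCAF4 pair exceeded every parental pair (p = 0.1, exact permutation). The inputs of the lines differed here as well, with mean intron shares of 40.3% in the parental and 28.4% in the SCAF4 input, against 22.4% and 27.1% in the IPs. An IP without tagged protein thus also held more coding exon clusters than its input, while the 3′ UTR and intron differences of the lines did not meet.

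**Figure D1:**
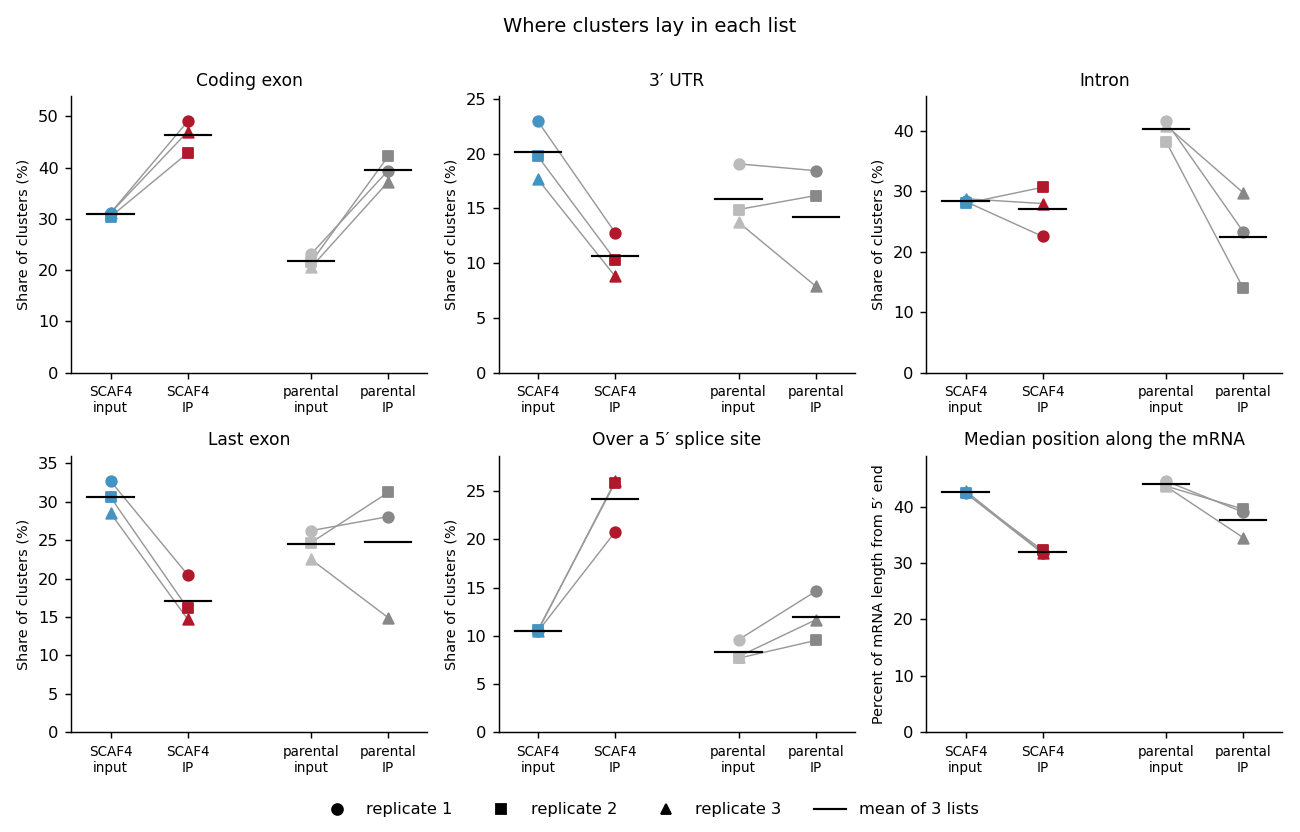
Share of clusters in coding exons, 3′ UTRs, introns, last exons and over a 5′ splice site (% of the list), and median position along the mRNA (% of its length from the 5′ end), for SCAF4 and parental input and IP lists; each point is 1 list, lines join lists of the same replicate number and bars are means of 3 lists. Coding exon shares were higher in the IP in both lines, whereas the 3′ UTR share went from a mean of 20.1% to 10.6% in the SCAF4 line and differed by -1.72 percentage points in the parental line.

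Within protein-coding genes of at least 3 exons, the last exon held a smaller share of the IP clusters. Last exons held 20.5%, 16.1% and 14.7% of the clusters of IP 1, 2 and 3, and 32.7%, 30.6% and 28.5% of those of the inputs. The 3 IP values lay below the 3 input values, and the paired differences were close to each other, from -14.5 to -12.2 percentage points with a mean of -13.5. The parental line had a mean difference of 0.256 percentage points with pairs of both signs, -7.59 to 6.54, and every SCAF4 pair lay below every parental pair (p = 0.1, exact permutation). Internal exons held 47.0% ± 2.64 of the IP and 31.9% ± 0.716 of the input clusters, and first exons 5.73% ± 0.391 and 3.50% ± 0.298 (SD, n = 3). For both of these exon classes the parental difference was at least as large on average, 21.1 percentage points for internal and 2.43 for first exons against 15.1 and 2.23 for SCAF4. First introns, with 9.12% ± 1.69 of the IP and 10.6% ± 0.0919 of the input clusters, and later introns, with 21.0% ± 3.40 and 23.4% ± 1.41 (SD, n = 3), overlapped between the groups (p = 0.3 and 0.4, exact permutation test).

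Clusters in the IP lay closer to the 5′ end of the mRNA. The median exonic cluster of a SCAF4 IP list was 31.7%, 32.3% and 31.9% of the way along the spliced mRNA, and that of an input list 42.5%, 42.4% and 42.8%. The lists of a group were within 1 percentage point of each other, and the paired difference was -10.6 ± 0.424 percentage points (SD, n = 3 pairs). Divided into 10 equal bins, the IP exceeded the input in the first 3 bins without overlap, most of all in the first, with 15.5% ± 0.234 against 9.62% ± 0.486 (SD, n = 3). From the fifth bin on, the IP lay below the input in all bins without overlap, down to 3.21% ± 0.289 against 6.06% ± 0.159 in the last. The first 20% of the mRNA held 32.6% of the IP and 22.2% of the input clusters, and the last 20% held 8.11% and 13.9%. The p-value was 0.1 in the exact permutation test for each of these, or 0.108 adjusted over 13 values along the mRNA. The parental IP was shifted the same way but less, by -6.24 percentage points in the median (-9.10 to -4.08), and no parental pair reached a SCAF4 pair (p = 0.1, exact permutation). Within genes, described further on, the pairs of the lines met.

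**Figure D2:**
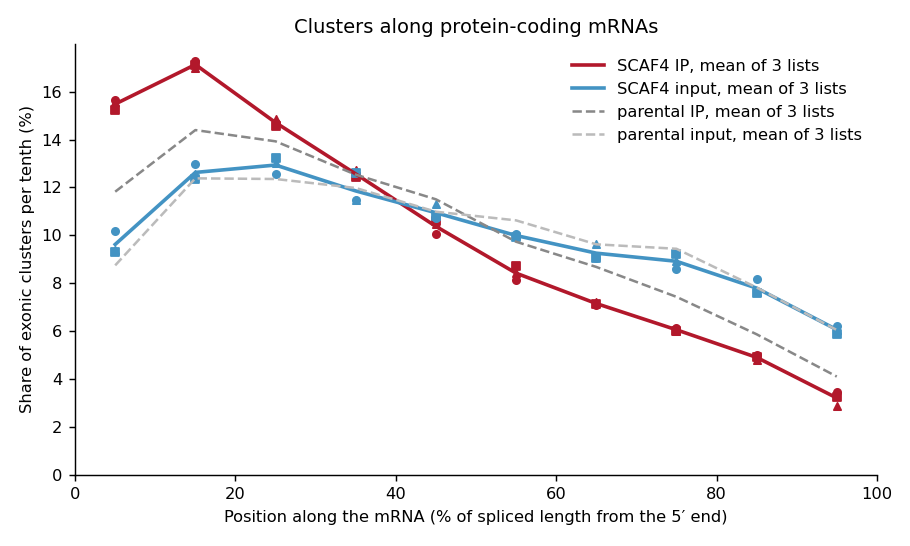
Share of exonic clusters (%) in each of 10 equal bins along the spliced mRNA (% of its length from the 5′ end); lines are means of 3 lists, and the points are the single SCAF4 lists (circles, squares and triangles for replicates 1, 2 and 3). The IP mean is at 17.1% in the second bin and 3.21% in the last, the input mean at 12.6% and 6.06%, and the lines cross between the fourth and the fifth bin.

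Splice sites were covered by IP clusters more often than by input clusters. A 5′ splice site, the boundary where an exon passes into the next intron, lay under 20.8%, 25.9% and 26.1% of the clusters of IP 1, 2 and 3 and under 10.5%, 10.6% and 10.5% of those of the inputs. A 3′ splice site, where the intron ends, lay under 17.8%, 20.8% and 21.6% of the IP and 8.62%, 8.27% and 9.16% of the input clusters. Neither pair of groups overlapped, and p was 0.1 for each, the smallest possible in the exact permutation test. In the parental line the 5′ splice site difference was 3.56 percentage points (1.84 to 5.03) against 13.7 (10.3 to 15.5) for SCAF4, and no pair of one line reached a pair of the other (p = 0.1, exact permutation). For the 3′ splice site the parental difference of 7.91 percentage points spread from 2.42 to 13.0 and met the 9.21 to 12.5 of SCAF4 (p = 0.4, exact permutation).

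The aligner used did not split reads over introns, so a read over a spliced junction could not be placed on both exons, and a few mismatched bases can carry a cluster past an exon end. Requiring at least 10 nt of the cluster on each side of the site lowered the shares to 14.9% ± 2.96 of the IP and 5.01% ± 0.385 of the input clusters for the 5′ splice site and to 14.1% ± 2.30 and 4.86% ± 0.553 for the 3′ splice site (SD, n = 3), and the IP stayed above the input in 3 of 3 pairs. The first 5′ splice site of a gene lay under 2.45% ± 0.233 of the IP and 0.850% ± 0.154 of the input clusters. Whole internal exons together with both of their splice sites were covered by 7.70% ± 1.48 of the IP and 2.28% ± 0.205 of the input clusters (SD, n = 3), compared with a parental difference of 1.01 percentage points. The midpoint of a cluster was a median of 115, 121 and 99 nt from the nearest junction in the IP and 435, 355 and 354 nt in the input lists. Here the parental difference of -530 nt was the larger one, beside -270 nt for SCAF4, and the inputs differed too, with means of 665 nt in the parental and 381 nt in the SCAF4 line. Of the intronic clusters, 21.8% ± 2.21 in the IP and 12.2% ± 1.89 in the input lay within 200 nt of a junction (SD, n = 3), and here too the parental difference was the larger, 15.3 against 9.69 percentage points.

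Around all splice sites, the coverage by clusters peaked in the exon. In the IP lists the peak was 75, 67 and 66 nt before the 5′ splice site, at 376, 362 and 389 clusters per 1000, and in the input lists it reached 223, 205 and 206 per 1000. The parental IP peaked at 295, 279 and 293 per 1000 and its inputs at 165, 141 and 136, so the exon side was also higher in the IP without tagged protein. Coverage on the intron side, averaged over 100 nt behind the 5′ splice site, was 53.8, 80.3 and 78.2 per 1000 clusters in the IP and 28.3, 25.2 and 23.1 in the input. A cluster near several sites was counted at each of them.

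**Figure D3:**
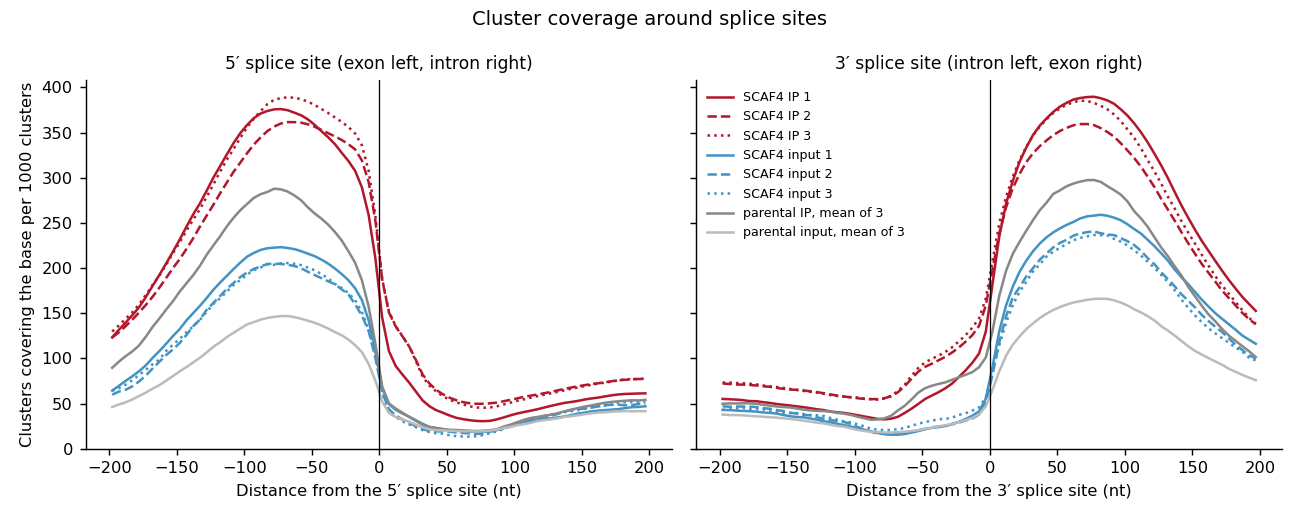
Number of clusters covering each base, per 1000 clusters of the list, against the distance (nt) from the 5′ splice site (left) and the 3′ splice site (right) of protein-coding genes; coloured lines are single SCAF4 lists and grey lines are means of 3 parental lists. The 3 IP lines lie above the 3 input lines on the exon side, with peaks of 362 to 389 per 1000 against 205 to 223 before the 5′ splice site, and behind it in the intron.

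Since the IP lists held genes that the input lists did not, a comparison within genes was added after the data had been seen. It took the 3691, 2167 and 2039 genes with clusters in both lists of pair 1, 2 and 3 and gave each gene the same weight. Within these genes, 3′ UTRs held 14.3% ± 1.43 of the IP and 22.2% ± 1.94 of the input clusters, and last exons held 23.4% ± 2.78 and 33.5% ± 1.76 (SD, n = 3). The median position was 33.3% ± 1.72 and 41.6% ± 0.780 of the mRNA length, and the 5′ splice site lay under 23.1% ± 3.20 and 8.77% ± 0.642 of the clusters (SD, n = 3). All of these kept the direction they had over whole lists. In the median position, however, the parental pairs within genes (-7.50 to -3.71 percentage points) met the SCAF4 pairs (-9.35 to -7.43). For 3′ UTRs and last exons the pairs of the lines did not meet. The coding exon difference was 7.76 percentage points in this comparison, against 15.4 over whole lists and against 12.3 within the genes of the parental line. The parental difference for the 5′ splice site was 0.898 percentage points within genes, with pairs from -1.01 to 3.27, beside 14.3 for SCAF4 with pairs from 9.91 to 16.99.

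By gene type, the IP held more clusters in protein-coding genes. These took 87.8%, 87.2% and 87.2% of the IP and 84.3%, 79.8% and 79.1% of the input clusters. Long noncoding RNA genes took 3.31% ± 0.142 and 4.68% ± 0.580, pseudogenes 3.33% ± 0.493 and 4.63% ± 0.243, and genes of small noncoding RNAs 0.575% ± 0.240 and 2.02% ± 0.554 (SD, n = 3, p = 0.1 each in the exact permutation test). None of the groups overlapped. In the parental line the protein-coding share was lower in the IP than in the input, by 1.44 percentage points on average, and the small noncoding share was higher by 1.65.

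The IP clusters were also richer in G and C, at 50.6% ± 0.499 of their bases against 47.9% ± 1.16 in the inputs, and held less T, at 24.1% ± 0.430 against 26.5% ± 0.829 (SD, n = 3). Within 100 nt around the midpoint, CGG or CGA occurred in 68.6% ± 1.34 of the IP and 61.1% ± 3.02 of the input clusters, CAG with a C or G on each side in 43.6% ± 1.66 and 37.3% ± 2.09, and CTCC or CACC in 49.3% ± 0.0818 and 44.3% ± 1.04 (SD, n = 3, sense strand). All these values separated the groups (p = 0.1 each, exact permutation test, or 0.113 adjusted over 9 values). The parental IP moved the same way, by 3.69 percentage points in G and C content against 2.73 for SCAF4 and by 14.2 against 7.55 points in the share with CGG or CGA, and by 5.12 against 6.34 points in that with CAG between C or G. For these differences between the lines the exact permutation test gave p = 0.2 to 0.6, where 0.1 is the smallest possible. It gave 0.2 to 0.9 for C, G and T singly and for CTCC or CACC. The pairs of the lines did not meet in CG dinucleotides per 100 nt, 0.0986 to 0.691 for SCAF4 and 0.974 to 1.25 for the parental line. Nor did they in the share of A, -0.627 to -0.175 against -2.36 to -0.969 percentage points (p = 0.1 for both, exact permutation). Among 150002 windows of 100 nt from exons of protein-coding genes, 70.0%, 52.99% and 61.1% held the 3 kinds of motif, each above the share in the IP clusters.

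The clusters of the IP were spread over more genes. The IP lists had clusters in 6437, 9715 and 7904 genes, the inputs in 4311, 2200 and 2122. Drawn down to 4399 clusters in every list, the number of genes was 2829, 2924 and 2796 in the IP and 2498, 2116 and 2122 in the inputs, so the IP lists held more genes at equal length as well. The 10 genes with the most clusters took 1.71% ± 0.267 of the IP and 4.17% ± 1.32 of the input clusters (SD, n = 3). Taken over clusters, so that a gene counted once per cluster, the median number of exons of the gene was 12.7 in the IP and 9.67 in the input lists, as the mean of 3 lists.

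Of 10598 genes with a cluster in any of the 6 lists, 5531 had clusters in all 3 IP lists and 1402 in all 3 inputs. There were 1760 genes with clusters in all 3 IP lists and in no input. Only RPL26L1 and the processed pseudogene ENSG00000213315 had clusters in all 3 inputs and in no IP list, with 1 cluster in each input. In number of clusters, 3723 genes had more in the IP than in its own input in 3 of 3 pairs and 5 genes had fewer, among them RPL26L1, ENSG00000213315, ENSG00000287264 and ENSG00000291336. The lower calls below therefore mostly concern shares of a longer list, not smaller numbers.

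For each gene, the clusters per 10000 clusters of a list were compared on the log2(share + 1) scale with limma over the 6 lists, for the 5817 genes with at least 5 clusters. At an adjusted p under 0.05, 1338 genes had a higher share in the IP, which is 23% of the genes tested, and 284 had a lower share, which is 4.88%. When the median of all genes was set to 0 in each list, which moved the median difference from 0.43 to -0.23, 0 genes were called higher and 0 lower at the adjusted threshold, and the split at an unadjusted p under 0.05 went from 1741 higher and 608 lower to 198 and 1090. The calls also rested on replicates 2 and 3: with either of them left out, limma called 0 genes in either direction, with 719 higher and 164 lower at an unadjusted p under 0.05 without replicate 2 and 1094 and 192 without replicate 3. Without replicate 1 the calls were 2193 and 524. For the parental line, a limma fit of all 12 lists over 6255 genes called 0 genes in either direction. Those genes were filtered over all 12 lists, while the parental IP lists had clusters in 3882, 1320 and 914 genes. Many of them thus had few or no parental clusters to test, and the 0 calls are not comparable with the 1338 and 284.

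Most higher calls were genes that no input list contained. Of the 1338, 1201 had 0 clusters in all 3 inputs, and for 221 of these the mean IP share exceeded 1.39 clusters per 10000, the share that 3 clusters over the 3 inputs together would give. The other 980 lay at or under that floor, and no fold is given for them. All 1201 reached the 5 clusters needed for the test through the IP alone, so a higher share was their only possible direction. Their adjusted p-values are therefore not support for enrichment. A further 137 higher genes had a cluster in at least 1 input. Of the 1338, however, 1316 had 0 clusters in inputs 2 and 3, so most of the 137 had input clusters in input 1 alone. The 284 lower genes had a median of 1.66 clusters per 10000 in the IP and 5.46 in the input, but a median of 5.33 clusters per list in the IP and 3.67 in the input, and 88 of them had at least as many clusters in the IP as in its own input in 3 of 3 pairs. In these genes the number of clusters was thus higher in the IP, but by less than the mean list length, which was 4.97 times that of the input. The part of list length in the lower shares was not tested.

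The gene with the largest increase was DYNC1H1, the heavy chain of cytoplasmic dynein, the motor that carries cargo toward the minus end of microtubules. It had 20, 59 and 45 clusters in IP 1, 2 and 3 and 3, 0 and 0 in the inputs. The ratio of pooled shares was 8.32 (95% counting interval 2.78 to 40.9), and the log2 difference was 3.03 ± 0.53 (SE, adjusted p = 0.0127, limma). Of its 124 IP clusters, 111 were in coding exons, 12 in introns and 1 in the 3′ UTR, and 41 covered a 5′ splice site. The parental line had a difference of 1.31 in this gene.

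PCNT, which encodes the centrosome scaffold pericentrin, had 15, 47 and 32 clusters in the IP and 1, 0 and 0 in the inputs. In the parental line PCNT had 17, 0 and 1 clusters in the IP and 10, 3 and 2 in the inputs. Parental IP 1, without tagged protein, thus held more PCNT clusters than SCAF4 IP 1. ESPL1, the gene of separase, which cleaves cohesin at anaphase, had 9, 33 and 25 clusters in the IP lists and 0 in each input. The share of ESPL1 was at least 4.50-fold higher in the IP, counted against 3 clusters over the 3 inputs, with a log2 difference of 2.80 ± 0.27 (SE). ESPL1 entered the test through the IP alone, so its call could have only that direction. In ESPL1, 31 of the 67 IP clusters covered a 5′ splice site. In both genes the 3 SCAF4 IP lists lay above the 3 SCAF4 inputs, which the rule for naming genes had required.

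TPR, a nucleoporin of the nuclear basket, had 17, 43 and 27 clusters in the IP against 4, 0 and 0. EP400, the ATPase of a chromatin-remodelling complex, had 10, 38 and 25 against 2, 0 and 0. RNF213, a giant E3 ubiquitin ligase, had 6, 21 and 17 and GTF3C1, a subunit of the RNA polymerase III factor TFIIIC, had 4, 25 and 20, with 0 in each input for both. The share in the IP was at least 2.95-fold higher for RNF213 and at least 3.29-fold higher for GTF3C1. The fitted log2 differences of the 4 genes were 2.50, 2.42, 2.31 and 2.30, with adjusted p-values of 0.0211 for TPR and 0.0127 for EP400 (limma). RNF213 and GTF3C1 entered the test through the IP alone, so their calls could have only that direction. These are long genes with many exons, from 37 in GTF3C1 to 68 in RNF213.

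Of the first 10 genes, 3 have near-identical copies, and their clusters may be shared among them. PKD1, the gene of the membrane protein polycystin-1, had 11, 32 and 19 clusters in the IP and 0 in each input, and its transcribed pseudogene PKD1P3 had 21, 32 and 27 against 4, 0 and 0. NBPF19, a member of a family with many copies on chromosome 1, had 5, 35 and 19 against 0. The shares of PKD1 and NBPF19 were at least 4.16-fold and 3.96-fold higher, and these values are uncertain for that reason. Both genes also entered the test through the IP alone.

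Many genes with the largest decrease in share had similar numbers of clusters in IP and input, in lists of unequal length. HSP90AA1, the inducible cytosolic HSP90 chaperone, had 11, 12 and 11 clusters in IP 1, 2 and 3 and 11, 12 and 11 in the inputs. SRSF1, a splicing factor of the SR family, had 10, 13 and 16 against 15, 12 and 13, and EEF1A1, the elongation factor that brings tRNA to the ribosome, had 9, 14 and 9 against 12, 9 and 9. Since the IP lists were longer, the log2 differences in share were -2.01 ± 0.44, -2.10 ± 0.37 and -1.93 ± 0.33 (SE, adjusted p = 0.0159, 0.0127 and 0.0127, limma). The clusters of SRSF1 were mostly in its 3′ UTR in both groups, 28 of 39 in the IP and 31 of 40 in the input. In HSP90AA1, 24 of 34 IP clusters and 8 of 34 input clusters covered a 5′ splice site.

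HNRNPH1, an RNA-binding splicing regulator, had 20, 24 and 21 clusters against 21, 20 and 18, and SRRM2, a large serine- and arginine-rich protein of nuclear speckles, 22, 25 and 23 against 18, 22 and 21. TMPO, the gene of lamina-associated polypeptides, had 10, 11 and 10 against 12, 10 and 10, and GPI, a glycolytic enzyme gene, 17, 40 and 28 against 22, 19 and 24. Their log2 differences in share lay between -2.03 and -1.88. The long noncoding genes ENSG00000283360, with 7, 12 and 6 clusters against 12, 9 and 9, and ENSG00000278996, with 15, 24 and 18 against 18, 18 and 15, had log2 differences of -2.21 and -1.99. All clusters of both genes lay in introns, 25 in the IP and 30 in the inputs for ENSG00000283360 and 57 and 51 for ENSG00000278996. Whether they came from these genes or from other RNA of the same place was not tested.

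**Figure D4:**
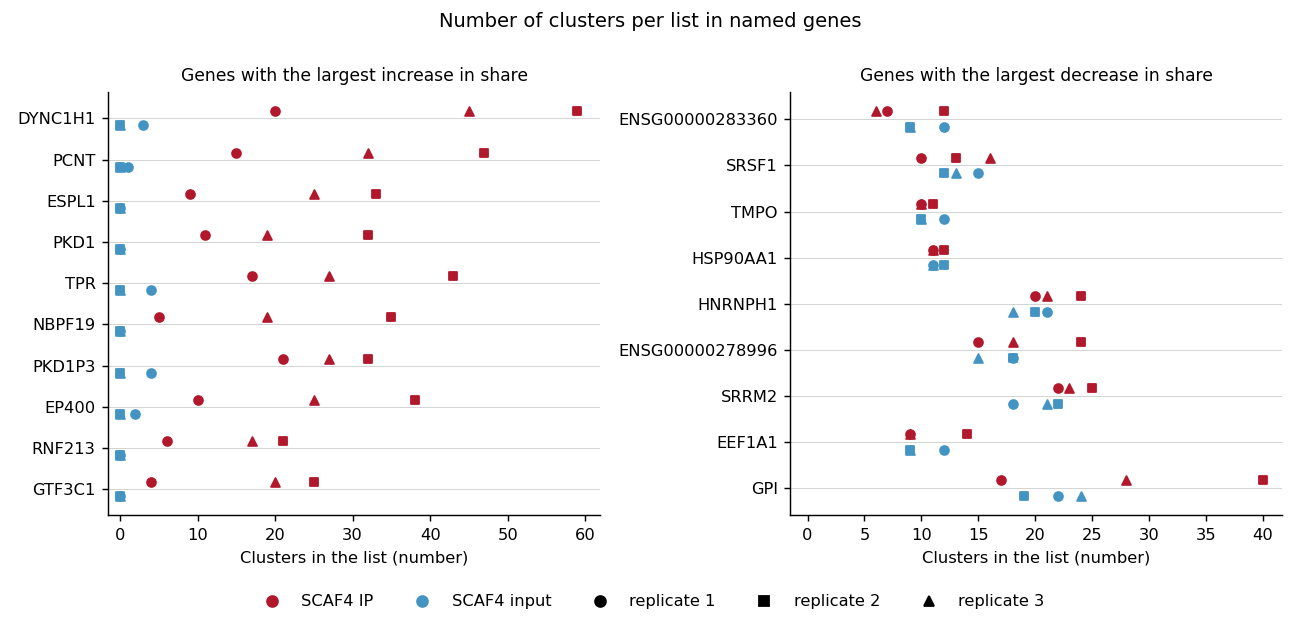
Number of clusters in each list for the genes with the largest increase (left) and the largest decrease (right) in share among genes that passed the test, with IP in red, input in blue and a symbol for each replicate. Genes on the left had 4 to 59 clusters in the IP and 0 to 4 in the inputs, whereas on the right IP and input numbers overlapped in most genes, with GPI at 40 against 19 in replicate 2 as the widest gap.

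The SCAF4 gene itself had 16, 25 and 24 clusters in the IP and 17, 16 and 17 in the inputs, against 4, 1 and 1 in the parental IP and 7, 2 and 1 in the parental inputs. Each list of the tagged line thus had more SCAF4 clusters than any parental list. In the tagged line 52 of the 65 IP clusters and 48 of the 50 input clusters lay in coding exons and 0 in the 3′ UTR. Its share was lower in the IP by 1.81 ± 0.38 on the log2 scale (SE, adjusted p = 0.0142, limma). SCAF8 had 8, 22 and 17 clusters in the IP and 7, 2 and 1 in the inputs, and its log2 difference of 0.19 did not pass the test (adjusted p = 0.714, limma).

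Lists of genes with known roles were described by their calls, beside 23% higher and 4.88% lower over all genes tested. Among genes of giant proteins, 14 of 33 tested had a higher share in the IP and 0 a lower one, with a median log2 difference of 0.94, beside 0.43 over all 5817 genes. Among chromatin methyltransferases and remodelers, 12 of 31 were higher and 1, ARID1A, a subunit of the BAF remodelling complex, was lower, with a median of 1.05. The summed share of the giant genes was 162, 172 and 190 clusters per 10000 in the IP and 94.7, 88.0 and 98.1 in the inputs, and that of the chromatin genes 103, 108 and 119 against 68.3, 48.9 and 50.1. For both gene lists, every IP value lay above every input value. Not all members did so: PRKDC, the catalytic subunit of a DNA repair kinase, had a log2 difference of 0.07 and did not pass the test (adjusted p = 0.86, limma). Of the tested members, 10 giant and 7 chromatin genes had 0 clusters in all inputs and entered the test through the IP alone, and with such genes at their bound the medians were 0.67 and 0.80, beside 0 over all genes. With the median of all genes set to 0 in each list, the medians of these gene lists were 0.27 and 0.39 against -0.23 over all genes.

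Again beside 23% higher over all genes, transcription elongation factors had 8 of 29 genes higher and 0 lower, with a median of 0.58, and ZNF zinc finger genes 41 of 136 higher and 2 lower, with a median of 0.49. With the 11 and 53 members that had 0 clusters in the inputs at their bound, the medians were 0.0095 and 0, beside 0 over all genes. The fitted medians were near that of all genes, 0.43. Once the median of all genes was set to 0 in each list, they came to lie at -0.09 and -0.18, beside -0.23 over all genes. Of the cleavage and polyadenylation factors, 1 of 16 was higher and 0 lower, and of the RNA polymerase II subunits 1 of 6 was higher and 0 lower. The proteins with a polymerase-binding domain like that of SCAF4, together with the SCAF genes, had 0 of 9 higher and 1 lower, which was SCAF4. Core spliceosome genes were called in both directions, 8 higher and 2 lower of 38.

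In several lists of housekeeping and RNA-binding protein genes, members were called lower and none higher, beside 4.88% lower and 23% higher over all genes tested. Of 23 genes of hnRNP proteins, which package nascent RNA, 12 had a lower share and 0 a higher one, with a median of -0.94. Their clusters per list were 217, 445 and 332 in the IP and 222, 145 and 137 in the inputs, or 114, 81.8 and 97.8 per 10000 against 190, 284 and 286. Of 14 SR splicing factors 6 were lower and 0 higher, of 19 glycolytic and cytoskeletal genes 10 were lower and 0 higher, and of 78 cytoplasmic ribosomal protein genes 11 were lower and 0 higher, with medians of -0.81, -1.28 and -0.63. Among named members, HNRNPU had a log2 difference of -1.80, HNRNPA2B1 of -1.48, ENO1, the glycolytic enolase, of -1.29, RPL22 of -1.35 and RPS23 of -1.34, all past the test. RPL3 and RPS19 had -0.71 and -0.45 and did not pass it.

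Beside the same 4.88% lower and 23% higher over all genes, translation factors had 10 of 38 genes lower and 2 higher, chaperones 6 of 20 lower and 1 higher, and replication-dependent histone genes 5 of 35 lower and 0 higher. Small and structured noncoding RNA genes, many of which lie inside introns of other genes and cannot be told from them by position alone, had 13 of 90 lower and 4 higher. Of the long noncoding RNAs 2 of 18 were lower, among them NEAT1, the RNA that scaffolds paraspeckles, with -1.40, whereas MALAT1 had -2.25 and did not pass the test (adjusted p = 0.0632, limma). Mitochondrially encoded mRNAs had no cluster in any of the 6 lists. Setting the median of all genes to 0 in each list moved every gene by the same amount, so the gene lists kept their places relative to all genes. The median went from -0.94 to -1.61 for hnRNP genes and from -0.63 to -1.30 for ribosomal protein genes, beside 0.43 to -0.23 over all genes. Under that setting 0 genes were called lower.

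The 10 genes that the study named for early polyadenylation sites had few clusters in these lists, and 8 could be tested. AKAP13, a scaffold protein of kinase signalling, was the only one called, with 2, 6 and 6 clusters in the IP and 0 in each input. AKAP13 entered the test through the IP alone, and its IP share lies under the floor, so no fold is given. HP1BP3, a heterochromatin-binding protein gene, had 9, 19 and 9 clusters against 11, 0 and 0 and did not pass the test. This list was drawn up by the study on samples of the same work, so its counts are not independent of it.

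**Figure D5:**
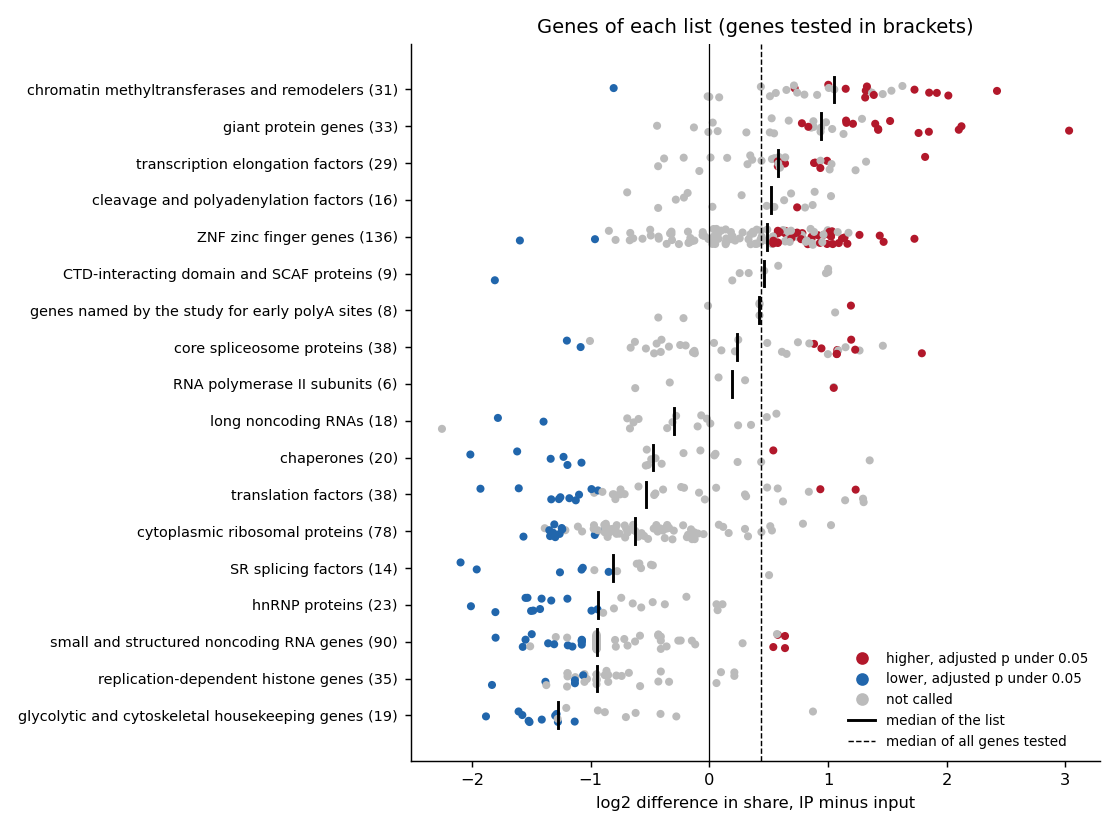
Log2 difference in share (IP minus input, log2 of clusters per 10000 + 1) of every tested gene in 18 gene lists, with the number tested in brackets; black bars are list medians, the dashed line is the median of all 5817 genes (0.43) and colours mark genes that passed the test. The medians go from -1.28 in glycolytic and cytoskeletal genes to 1.05 in chromatin genes.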

How the data were processed

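PAR-CLIP libraries of soluble and chromatin extracts were made from IPs and inputs in 3 replicates. Per the methods and labels, reads were demultiplexed with bcl2fastq 1.8, trimmed with Trim Galore and cutadapt, aligned to GRCh38 with Bowtie2 2.2.9, freed of duplicates with Picard, merged over both fractions and passed to PARalyzer, which required more than 10 reads and T-to-C changes. The deposited lists give each cluster's position, strand and a score, from 0.501 to 1, whose meaning the authors' files do not state, and they hold no reads. The lists are not filtered against the inputs: IP clusters that overlap input clusters are still in them. The other 6 lists of the series, from SCAF8, were not used here. No column was left unmatched to a sample.

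Cluster midpoints were assigned on their strand to 1 isoform of each GENCODE 44 gene, that with the most exonic bases (Python 3.11.15, pandas 2.3.3, numpy 2.4.6, intervaltree 3.1.0, pysam 0.24.0 and SciPy 1.17.1). Lists were compared by two-sided exact permutation of the 6 list labels, and the difference between lines by exact permutation of the 6 paired differences. Genes with at least 5 clusters over the 6 lists were fitted with limma 3.58.1 (R 4.3.3, eBayes with trend) on log2(clusters per 10000 clusters + 1), with Benjamini-Hochberg adjustment over all genes tested and a threshold of 0.05. The gene test was also tried on simulated data, whose outcome is not used here. Intervals of ratios are exact 95% binomial intervals of the pooled clusters and cover counting error only. A gene with 0 clusters in the inputs was set against a floor of 3 clusters over the 3 inputs. Isoforms, score, pseudocount, filters, unit, centring, trend, the replicate block and left-out replicates were tried as alternatives.

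The named genes were the 10 largest increases and the 10 largest decreases past the threshold whose groups did not overlap, SCAF4, SCAF8, the genes the study named for early polyadenylation sites, and up to 4 members of each gene list with the most clusters; 1 of the decreases is not reported here. The members, lists and rules were chosen with earlier results of these data known. IP and input of the same number pair because the input was taken from the extract of that IP, and over 5817 genes the deviations of same-numbered lists correlated at 0.14, 0.02 and 0.12, those of other numbers at -0.19 to 0.09.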

Additional observations from a re-analysis of the deposited data

Results flagged for a closer look

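For several measures all 3 SCAF4 pairs moved one way and all 3 parental pairs the other, and the exact permutation test of the difference gave p = 0.1, the smallest possible, for each. The difference of the IP minus input differences (SCAF4 minus parental) was 3.31 in the log2 number of clusters, 5868 in the number of genes with a cluster and 2.21 in the clusters per gene. It was -28.4 percentage points in the share of genes with 1 cluster, 7.74 in the share of clusters in protein-coding genes, -7.08 in that of exons of other gene types, -3.19 in that of pseudogenes and -3.10 in that of small noncoding RNA genes. These shares move together with list length, and the part of length in them was not tested.

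Over genes, an interaction fit of 12 lists with limma found 690 of 6255 genes with a larger and 26 with a smaller IP minus input difference in the SCAF4 line than in the parental line. Of the 10 largest increases, only PKD1, with 0 clusters in the SCAF4 inputs, was among the former. Its interaction was 2.50 on the log2 scale (2.76 in the SCAF4 line, 0.26 in the parental line, adjusted p = 0.0326, limma). The others did not pass, among them DYNC1H1 (1.72, adjusted p = 0.264, limma) and EP400 (1.15, adjusted p = 0.505, limma). SRSF1, at -2.14 (adjusted p = 0.0334, limma), and HNRNPU, at -1.81 (adjusted p = 0.0201, limma), were among the latter. So was the long noncoding gene ENSG00000278996, whose clusters in the 6 SCAF4 lists all lay in introns, at -2.99 (adjusted p = 0.0334, limma). The filter asked for at least 5 clusters summed over the 12 lists, and the SCAF4 IP lists were the longest. A gene with clusters in the SCAF4 IP lists alone could only have a larger difference, so the 690 are not support for enrichment. How many of them were such genes was not counted.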

How the results depend on the processing

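With the replicate block, which uses the pairing of IP and input, limma called 1329 genes higher and 179 lower, and the list-level differences kept their values, with 0.25 as the smallest p that sign flips of 3 pairs can give. The calls over genes were the least stable values. They numbered 377 higher and 55 lower without a filter on low values, 161 and 162 with a mean of at least 1 cluster per 10000, 564 and 33 with the clusters whose score reached their list's median (where the overlap of input clusters with their own IP was 43.1%), 0 and 0 with the median of all genes set to 0, and 464 lower without a trend. Leaving out 1 replicate gave 0 to 2193 higher and 0 to 524 lower genes. With genes of both lists weighted equally, exons of other gene types turned to 0.34 and downstream regions to 0.15 percentage points. The cause of these moves was not tested. Of the values for list measures and counts under the alternatives, 307 were labelled the same, 13 weaker, 4 moved, 3 stronger and 2 reversed. For measures whose groups did not overlap, the same meant the same direction, whatever the size. The coding exon difference, for instance, went from 7.76 to 17.9 percentage points. Of the values for called named genes, 269 still passed in the same direction and 150 no longer passed the adjusted threshold. The 3′ UTR difference stayed between -9.84 and -7.92 percentage points, the median position between -10.4 and -8.30 and the 5′ splice site between 9.85 and 16.02, or, with 1 replicate left out, between -9.80 and -9.15, -10.9 and -10.5, and 12.8 and 15.4. The setting with at least 10 nt on each side of a splice site and the one within genes were chosen after seeing the data. With 3 lists a group, no list-level test could pass 0.05, and with no read numbers the depth could not be matched between lists.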
